A study of Mus musculus with 9 samples.

Results

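The 10 genes described here are the kinases, partner proteins and mediators that carry the DNA damage checkpoint signal, and they were taken by name: Atm, Atr, Prkdc, Chek1, Chek2, Atrip, Clspn (claspin, also written Claspn), H2ax, Mdc1 and Trp53bp1. All probe sets that the array annotation assigns to a single one of them were used, 23 of 45101 on the array, and the 10 genes are 10 of 18193 genes with such a probe set. A further probe set names both Atrip and Trex1 and was not used. The samples were T-cell lymphomas that arose under 4-hydroxytamoxifen (4-OHT) in mice labelled G3 Atm-/-TERT-ER; TERT-ER is a telomerase catalytic subunit fused to the oestrogen receptor so that 4-OHT turns telomerase on. The lymphomas were passed through SCID mice, and both groups go back to shared parental lines. There were 3 telomerase tumours at passage 4 in hosts kept on 4-OHT, 5 tumours at passage 4 in hosts kept on vehicle, in which telomeres are maintained by alternative lengthening (ALT), and 1 parental tumour that the labels call telomerase-positive. Every tumour, control or not, therefore lacks Atm, and drug, telomerase activity and ALT change together and cannot be told apart. The labels do not name the Atm allele, the promoter of TERT-ER or the animal behind each tumour, so p-values measure the spread between these samples, which may be technical.

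In mammalian cells ATM and DNA-PKcs (Prkdc) respond to double-strand breaks, whereas ATR, held by ATRIP, responds to single-stranded DNA coated with replication protein A, as at stalled forks and uncapped telomeres. ATM and ATR activate the kinases CHK2 and CHK1, the latter with the help of claspin, and all 3 large kinases phosphorylate the histone variant H2AX. MDC1 binds the phosphorylated histone and brings in further mediators such as 53BP1 (Trp53bp1), which also favours end joining and, in developing lymphocytes, antigen receptor gene assembly. Loss of Atm in mice leads to thymic lymphoma. The scid mutation of the host strain lies in Prkdc, so host cells in a specimen carry a mutant copy of one of the 10 genes.

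Values are signals computed by the authors with MAS5, on a linear scale; the level of background is unknown because the table has no detection calls. Array medians lay between 39.8 and 43.8. The T-cell label was checked with 12 marker genes, of which 11 had a probe set: Cd3d ran from 6700 to 9846 and Cd8a from 1130 to 1774 over the 9 arrays, while Cd4 ran from 33.8 to 161 and the T-cell receptor alpha probe set from 8.84 to 27.9. The summed T-cell signal was 29819 to 32558 in the telomerase tumours and 22381 to 28843 in the ALT tumours, without overlap, whereas the mean log2 level of the same genes overlapped. Transcripts of pancreatic acinar cells were abundant in 4 arrays (1 telomerase, 3 ALT), with a summed signal of 9 genes up to 146475 against 233 in the parental array, and skeletal muscle transcripts were high in the parental array and telomerase 1 (11868 and 7877 summed over 8 genes, against 210 to 289 in the ALT arrays). The summed signals of the B-cell, NK-cell, myeloid, stromal, endothelial, erythroid, adipocyte and proliferation lists overlapped between the groups. Of their defining markers, Cd79a (B cell), Ncr1 (NK cell), Hba-a1 (erythroid) and Lep (adipocyte) were below the filter level of 25.3 in every array. In such bulk samples fewer cells of a type and less RNA per cell cannot be told apart, and the part of these other transcripts in the results below was not tested, apart from acinar and proliferation transcripts. With the mean log2 level of the acinar list as a term in the model on all 8 arrays, H2ax and Atr were again the 2 members that passed. There H2ax had a log2 change of -0.47 (limma adjusted p = 0.00498).

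Between ALT and telomerase tumours 2 of the checkpoint genes passed the test, and both fell: H2ax, the histone variant, and Atr, the kinase of replication stress. Comparisons were made with limma on log2(signal + 16) over 12368 genes with Benjamini-Hochberg adjustment and a threshold of 0.05, using for each gene its brightest probe set. All 10 genes were above the filter on low signals; 2 of 10 passed, 0 higher and 2 lower in ALT, where 17.5% of all tested genes passed, 7.48% as higher and 10.1% as lower. The same 2 were the only members whose groups did not overlap, both lower, against 24.8% of tested genes (13.9% lower and 10.9% higher). The share called is thus close to that of all genes. For the 8 genes that did not pass, the intervals below give the changes these arrays allow. In size, the intervals of Prkdc, Mdc1 and Chek1 reach both called changes, and the intervals of Atm and Chek2 reach that of Atr. The median log2 change of the 10 was -0.11, beside -0.01 for all tested genes. Without telomerase 1 the calls were 1 of 10 genes (H2ax) and 1163 of all tested genes in place of 2169, and without ALT 5 they were 3 of 10, with Mdc1 added as higher.

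**Figure D1:**
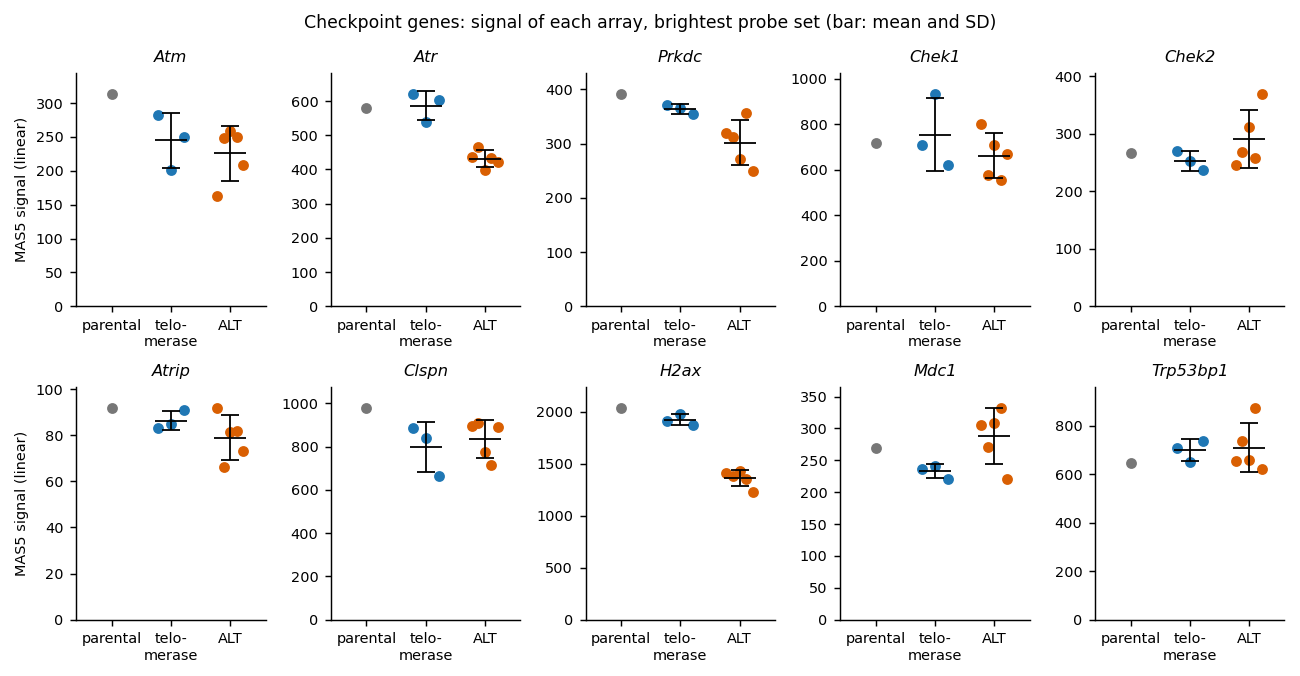
MAS5 signal (linear axis from 0) of the brightest probe set of each of the 10 genes in every array; points are arrays (grey parental, blue telomerase, orange ALT) and bars are the mean and SD of a group. The 5 ALT points lie below the 3 telomerase points for H2ax and Atr, and the groups overlap for the other 8 genes.

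H2ax encodes the core histone whose tail is phosphorylated over long stretches of chromatin around a break. Its signal was 1912, 1978 and 1874 in telomerase tumours 1 to 3 and 1413, 1379, 1431, 1355 and 1229 in ALT tumours 1 to 5. Every ALT tumour was below every telomerase tumour, and the spread within each group was small beside the gap, with 1921 ± 52.4 (SD, n = 3) against 1361 ± 79.6 (SD, n = 5). The fall was 0.49 on the log2 scale (SE 0.0732, limma adjusted p = 0.0017), to 0.71 of the telomerase level. It had nearly the same size among arrays without acinar transcripts (2 telomerase and 2 ALT tumours, log2 change -0.48, adjusted p = 0.0484) and among arrays with them (1 and 3 tumours, -0.48, adjusted p = 0.178), where the call was lost with the single telomerase array assumed to vary like the others. With the mean log2 level of the proliferation list as a term in the model it was -0.50 (adjusted p = 0.003).

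Atr, the main kinase of the replication stress response, had 619, 538 and 603 in telomerase tumours 1 to 3 and 437, 466, 398, 432 and 422 in ALT tumours 1 to 5 at its brightest probe set. The lowest telomerase tumour was above the highest ALT tumour. The fall was 0.43 on the log2 scale (SE 0.0901, limma adjusted p = 0.00996), to 0.74 of the telomerase level. Another Atr probe set gave 198, 207 and 164 in the telomerase tumours and 137, 150.3, 135, 139 and 176 in the ALT tumours, with ALT 5 above telomerase 3. There the log2 change was -0.33 (SE 0.121, adjusted p = 0.0821 over all probe sets). The dimmest of the 3 Atr probe sets ranged from 86.9 to 147 in telomerase and from 59.98 to 141 in ALT tumours, with a log2 change of -0.23 (95% confidence interval -0.83 to 0.36). The 3 probe sets had the same sign, and only the brightest one passed. The Atr call was lost without telomerase 1 (log2 change -0.39, adjusted p = 0.0581) and with the mean of its probe sets (-0.33, adjusted p = 0.0989), and among arrays without acinar transcripts (-0.46, adjusted p = 0.113) and with them (-0.44, adjusted p = 0.267). It held on all 8 arrays with the acinar level as a term (-0.46, adjusted p = 0.0153).

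Atr is also the member past the threshold that the RefSeq promoter table (GRCm38.p6) holds; it holds 8 of the 10 genes, and H2ax and Prkdc are not among them. Shown are the 250 bases before the start of Atr and, for contrast, of Chek2 and Mdc1, which hold a string of E2F type, the factors that drive S-phase genes. Capitals mark matches on either strand to GGGCGG (SP1 box), CCAAT and TTTCCCGC (E2F type), and the sequences run 5′ to 3′ along the gene.
Atr, chr9:95857347-95857596, plus strand: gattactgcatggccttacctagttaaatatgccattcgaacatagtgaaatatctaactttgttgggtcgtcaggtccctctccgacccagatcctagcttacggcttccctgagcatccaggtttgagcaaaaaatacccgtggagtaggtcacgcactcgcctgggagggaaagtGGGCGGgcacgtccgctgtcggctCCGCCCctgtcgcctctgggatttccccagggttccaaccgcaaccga
Chek2, chr5:110839733-110839982, plus strand: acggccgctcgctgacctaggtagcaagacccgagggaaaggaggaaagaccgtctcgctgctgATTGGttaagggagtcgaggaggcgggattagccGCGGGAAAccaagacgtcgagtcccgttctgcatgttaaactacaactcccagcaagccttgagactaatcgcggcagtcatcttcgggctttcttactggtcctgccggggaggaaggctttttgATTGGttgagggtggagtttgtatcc
Mdc1, chr17:35841248-35841497, plus strand: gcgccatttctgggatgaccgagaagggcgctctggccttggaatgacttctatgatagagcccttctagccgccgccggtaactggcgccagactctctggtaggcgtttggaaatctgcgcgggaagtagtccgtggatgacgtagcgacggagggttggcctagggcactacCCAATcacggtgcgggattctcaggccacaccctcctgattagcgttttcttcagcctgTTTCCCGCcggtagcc
The string TTTCCCGC was in 2 of the 8 windows, those of Chek2 and Mdc1, and in 0.895% of all 32851 windows of this length. CCAAT was in 5 of 8 (Atm, Chek2, Atrip, Clspn and Mdc1) and in 33.8% of all, and GGGCGG in 3 of 8 (Atm, Atr and Trp53bp1) and in 32.7% of all. The other strings searched were in 0 of the 8 windows: the E2F types TTTCGCGC (in 0.256% of all windows) and TTTGGCGC (0.417%), the cell cycle element TTTGAA (16%), the cyclic AMP element TGACGTCA (1.55%), the ETS core CCGGAAG (6.91%) and the TATA box TATAAA (12.4%). The strings do not overlap each other in the windows shown. A match is a description of the letters only.

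The other 2 kinases of the same family did not pass. Prkdc, the catalytic subunit of the end joining kinase DNA-PK, gave 372, 366 and 354 in telomerase tumours 1 to 3 and 320.1, 312, 272, 356 and 249 in ALT tumours 1 to 5. Only ALT 4 reached into the narrow telomerase range. Its log2 change was -0.27 (95% confidence interval -0.53 to 0.0005, limma adjusted p = 0.16). The sign was the same in all 25 alternative settings, but some of them leave the log2 change as it was. Atm still gave a signal, although all tumours came from mice labelled Atm-/-. It was 283, 202 and 249.8 in telomerase tumours 1 to 3 and 163, 249, 259, 249 and 208 in ALT tumours 1 to 5, with 313 in the parental tumour. A second, dimmer Atm probe set ranged from 104 to 129 in telomerase and from 103 to 138 in ALT tumours. The labels do not name the allele. It is not known here whether either probe set reads a part missing from that allele, so these signals do not check the genotype. The label is that of the mice in which the lymphomas arose, and the part of SCID host cells in the Atm signals was not tested. The log2 changes were -0.12 (95% confidence interval -0.48 to 0.25) and -0.02 (-0.30 to 0.26).

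The effector kinases lay within overlapping ranges. Chek1, which carries the ATR signal, had 709.5, 931 and 619.5 in telomerase tumours 1 to 3 and 801, 577, 708, 557 and 669 in ALT tumours 1 to 5 (log2 change -0.17, 95% confidence interval -0.52 to 0.17). The telomerase tumours alone spanned almost the whole range of values. Of its 5 probe sets 1 was below the filter and 0 of the other 4 passed; their log2 changes ran from -0.39 to -0.01. Chek2, which carries the ATM signal, had 269.9, 252 and 237 against 245, 269, 313, 259 and 369, so ALT 5 was highest (log2 change 0.18, 95% confidence interval -0.13 to 0.48).

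The partners of ATR and CHK1 did not pass either. Atrip, which brings ATR to single-stranded DNA, had 83.3, 84.9 and 90.8 in telomerase tumours 1 to 3 and 91.9, 66.2, 81.5, 81.7 and 73.3 in ALT tumours 1 to 5 (log2 change -0.11, 95% confidence interval -0.39 to 0.16). The probe set shared with Trex1, a DNA exonuclease gene, had 93.8, 80.6 and 88.7 against 66.6, 54.4, 77.2, 78.4 and 56.6. There every ALT tumour was below every telomerase tumour, unlike at the Atrip probe set; it was not fitted, and the part of each gene in its signal is not known. Clspn, the adaptor through which ATR reaches CHK1, had 885, 841 and 666 against 894, 908, 775, 714 and 892 (log2 change 0.07, 95% confidence interval -0.20 to 0.34), and its other probe set had a log2 change of 0.26 (-0.11 to 0.63). The lowest Clspn signals of each group were in telomerase 3 and ALT 4, the arrays with the lowest mean log2 level of the proliferation list in each group (10.8 in both); with that level as a term in the model the Clspn log2 change was 0.04 (SE 0.0982) in place of 0.07 (SE 0.121).

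The mediator genes Mdc1 and Trp53bp1 showed no fall like that of H2ax at their brightest probe sets. Mdc1 had 237, 242 and 221 in telomerase tumours 1 to 3 and 306, 271, 309, 332 and 220.1 in ALT tumours 1 to 5. All ALT tumours but ALT 5 were above the telomerase range. The log2 change was 0.27 (95% confidence interval -0.02 to 0.57, limma adjusted p = 0.188), and without ALT 5 it was 0.36 (adjusted p = 0.0416). Trp53bp1 had 708, 649 and 737 against 654, 735, 658, 874 and 622, a log2 change of 0.01 (95% confidence interval -0.25 to 0.28).

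The 6 probe sets of Trp53bp1 did not all follow one pattern. One of them gave 80.1, 69.3 and 85.9 in telomerase tumours 1 to 3 and 47.8, 40.6, 57.8, 55.6 and 54.1 in ALT tumours 1 to 5, without overlap. Its log2 change was -0.49 (SE 0.135, adjusted p = 0.0271 over all probe sets), and the parental tumour, at 95.3, was higher than all others. The second brightest pointed the other way, with 415, 398 and 464 against 524, 502, 437, 535 and 406 (log2 change 0.16, 95% confidence interval -0.09 to 0.42). Of the other 3 probe sets 1 was below the filter, and it is not known here which transcripts each one reads. Counted by probe set, 21 of the 23 were above the filter and 3 of the 21 passed, 0 higher and 3 lower, where 20.2% of all tested probe sets passed, 7.72% as higher and 12.5% as lower. The same 3 were without overlap, where 26.4% were (16.1% lower and 10.4% higher). Without telomerase 1 only the H2ax probe set passed, without ALT 5 there were 5, and the Trp53bp1 probe set was also lost without telomerase 3 and without ALT 1. Its call was lost as well with the acinar level as a term, among arrays without acinar transcripts, with the replicate block and without the filter.

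**Figure D2:**
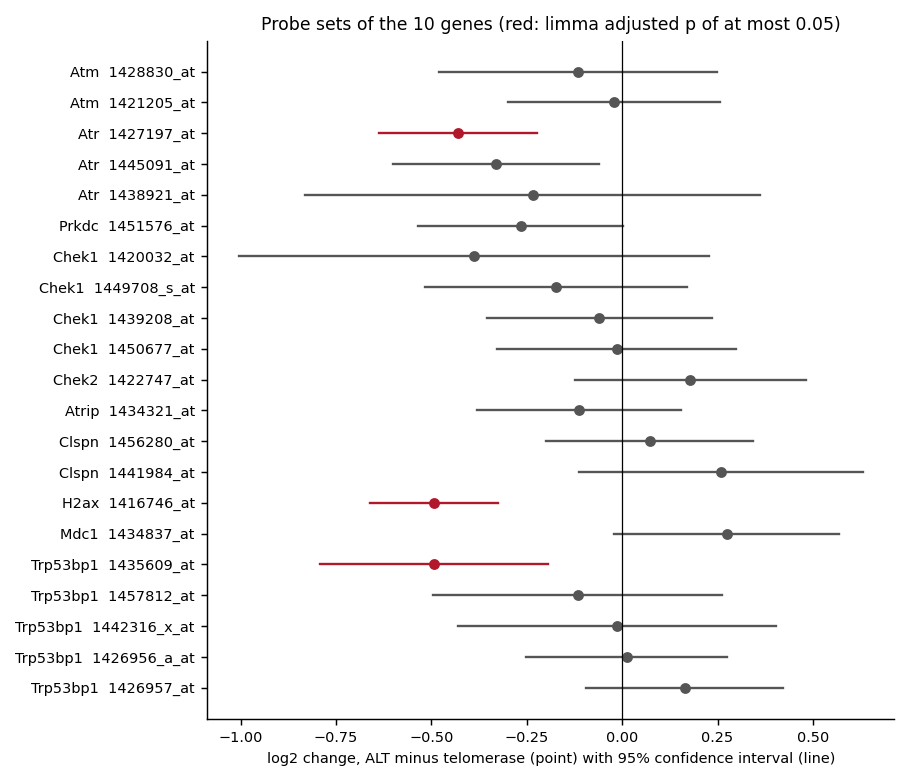
Log2 change from telomerase to ALT tumours (horizontal axis) of the 21 tested probe sets of the 10 genes, with 95% confidence intervals from limma; red marks an adjusted p of at most 0.05. The 3 red points, of Atr, H2ax and Trp53bp1, lie between -0.49 and -0.43.

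The parental tumour, with 1 array and no test, was nearer to the telomerase mean than to the ALT mean for 8 of the 10 genes on the log2 scale, and nearer to the ALT mean for Clspn and Mdc1. The share over all genes was not counted. Its distances from the telomerase and ALT means were close for Trp53bp1 (-0.11 and -0.12) and Chek2 (0.07 and -0.10). At the second brightest probe sets of Chek1 and Trp53bp1 it was nearer to the ALT mean. For H2ax it gave 2039, the highest of the 9 arrays and 0.58 above the ALT mean on the log2 scale. For Atr it gave 579, inside the telomerase range. Prkdc (391), Clspn (979.9) and Atm (313) were also highest in the parental tumour.

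The wider pathway moved in both directions. Of 76 further genes in 12 lists by role, 73 had a probe set, 70 were tested and 11 passed, 3 higher and 8 lower in ALT, again near the 17.5% of all genes. Their median log2 change was 0.01. Without the filter on low signals 10 passed, 2 higher and 8 lower. Without telomerase 1, 5 passed, 1 higher and 4 lower, and 4 passed among arrays without acinar transcripts and 1 among arrays with them. Among the sensors, Mre11a, the nuclease of the MRN complex that recruits ATM to breaks, rose from 212 ± 23.1 (SD, n = 3) to 344 ± 39.8 (SD, n = 5), with a log2 change of 0.65 and limma adjusted p = 0.00473; its 2 probe sets differed, and the dimmer one had a log2 change of -0.04, so that with their mean it was 0.31 (adjusted p = 0.0444). Among arrays without acinar transcripts Mre11a was at 0.48 (adjusted p = 0.128) and among arrays with them at 0.82 (adjusted p = 0.0857), and the call was lost in both. Its partners Nbn and Rad50 had log2 changes of 0.23 and -0.04. Rpa3, the small subunit of replication protein A, the platform on which ATRIP sits, was 972 to 1137 in the telomerase and 551 to 774 in the ALT tumours and fell by 0.67, while Rpa1 and Rpa2 had log2 changes of -0.13 and 0.01. Of 7 genes of the 9-1-1 clamp, its loader and the activators of ATR 0 passed with limma. Of these, 2 had an unadjusted p under 0.05, Etaa1 (log2 change 0.35, adjusted p = 0.0563) and Rad17 (-0.47, adjusted p = 0.0627). Over all 12368 tested genes, 3884 had such a p. Of 3 fork protection genes 0 passed (limma; 1 with an unadjusted p under 0.05, Wdhd1), and Timeless and Tipin had log2 changes of 0.20 and 0.01.

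Downstream of H2AX, Uimc1 (RAP80), which reads ubiquitin chains at breaks and brings in BRCA1, fell from 797 ± 73.0 (SD, n = 3) to 411 ± 87.4 (SD, n = 5), by 0.95 on the log2 scale (limma adjusted p = 0.00363); with the arrays divided by acinar transcripts the log2 changes were -0.74 (adjusted p = 0.0579) and -1.07 (0.0624). Bard1, the partner of BRCA1, rose by 0.91 (limma adjusted p = 0.046) from signals of 5.14 to 20.7 to signals of 26.6 to 66.2. All telomerase signals and the parental one (10.4) were below the filter level of 25.3, so the gene was tested only through its ALT signals. Without the filter the call was lost (adjusted p = 0.051). The signals also lie near the pseudocount, and with a pseudocount of 64 the log2 change was 0.42 and missed the threshold (adjusted p = 0.0589). The Bard1 call was also lost without any single telomerase array and without ALT 2, 3 or 5 (highest adjusted p 0.171). Brca1, Rnf8 and Rnf168 had log2 changes of 0.07, 0.15 and -0.07. Of 7 tested effectors of 53BP1 0 passed, and 0 had an unadjusted p under 0.05 (limma), where 3884 of all 12368 tested genes did. The log2 changes of Rif1, Shld2 and Nudt16l1 were -0.07, -0.30 and 0.14. Among the partners of DNA-PKcs, Xrcc6 (Ku70) rose by 0.59 (adjusted p = 0.0301) with overlapping groups, since ALT 5 had 1963 and telomerase 3 had 2009.7; the call was lost without any single telomerase array and without ALT 1, 2 or 3 (highest adjusted p 0.104). Both of its probe sets were higher. Xrcc4 and Lig4 had log2 changes of -0.19 and -0.10.

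Genes that assemble the kinases or reverse their signal gave calls that differed between probe sets for some genes. Of 6 genes for the assembly of large kinases of the ATM family, 2 fell: Pih1d1 by 0.57 (adjusted p = 0.0164) and Ruvbl2 by 0.36 (adjusted p = 0.0318). Ruvbl1 had a log2 change of -0.22 (limma adjusted p = 0.0589), with no overlap between groups. Over all tested genes 10.1% passed as lower, and 13.9% were lower without overlap between groups. Without telomerase 1 the values were -0.48 (adjusted p = 0.0856) for Pih1d1 and -0.39 (0.0807) for Ruvbl2, and leaving out telomerase 2 or 3 or ALT 1, 3 or 4 ended the Ruvbl2 call as well (highest adjusted p 0.12). Pih1d1 had 1 of 3 tested probe sets past the threshold and another at 0.11, and with the mean of its probe sets its log2 change was -0.26 (adjusted p = 0.184). Of 8 tested phosphatase genes 2 fell, Ppm1d (WIP1) by 0.49 and Eya3 by 0.55, but each also had a probe set that was called higher, with log2 changes of 0.39 and 0.79. With the mean of their probe sets the log2 changes were -0.05 (adjusted p = 0.76) and 0.02 (adjusted p = 0.918), and both calls were lost without telomerase 1 or 2, that of Eya3 also without telomerase 3. Of 8 tested checkpoint effectors 0 passed with limma and 3 had an unadjusted p under 0.05: Cdc25c (log2 change 0.60, adjusted p = 0.0593), Mdm4 (-0.36, 0.0848) and Wee1 (0.24, 0.106). Over all 12368 tested genes, 3884 had an unadjusted p under 0.05. Of the 3 other kinases of the family 0 passed, and 0 had an unadjusted p under 0.05 (limma); Trrap, Mtor and Smg1 had log2 changes of -0.29, -0.11 and -0.05.

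**Figure D3:**
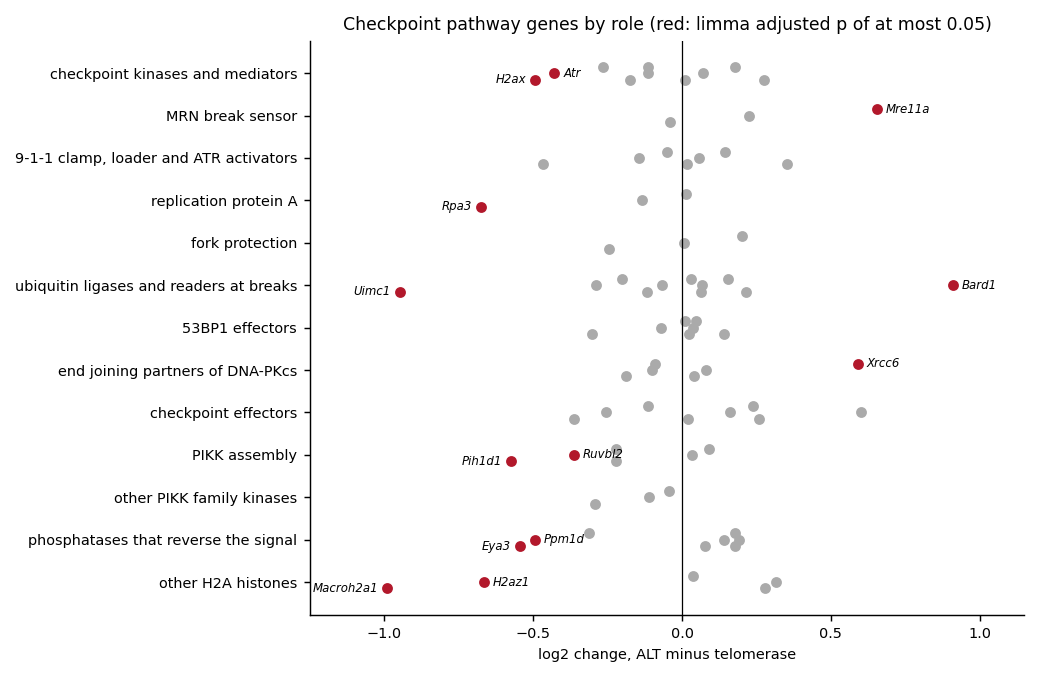
Log2 change from telomerase to ALT tumours (horizontal axis) of the 10 checkpoint genes and of the 70 further tested genes by role; each point is a gene, spread vertically for legibility, and red marks a limma adjusted p of at most 0.05. Red points lie on both sides of 0, from Macroh2a1 at -0.99 to Bard1 at 0.91. Bard1 was above the filter on low signals only through its ALT arrays.

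H2ax was not the only gene of an H2A variant with lower signals. Of 5 such genes measured beside it 2 passed as lower and 0 as higher, where 10.1% of all tested genes passed as lower and 7.48% as higher. The median log2 change of the 5 was 0.04, beside -0.01 for all tested genes. Macroh2a1 encodes macroH2A1, a large variant of repressed chromatin. It gave 4697, 4669.9 and 4689.6 in telomerase tumours 1 to 3 and 2187, 2648, 2245, 2669 and 2075 in ALT tumours 1 to 5. The ALT values were far below a very narrow telomerase range (log2 change -0.99, SE 0.0924, limma adjusted p = 0.000146). The call held in all 25 alternative settings, although at the threshold of 0.1 it could not be lost. H2az1 encodes H2A.Z, the variant placed at promoters. It gave 11558, 10717 and 10353 in telomerase tumours 1 to 3 and 6385, 8379.8, 5714, 7697 and 6368 in ALT tumours 1 to 5. Those groups did not overlap (log2 change -0.67, adjusted p = 0.00383, lower in both probe sets), and the call was lost in arrays with acinar transcripts (-0.57, adjusted p = 0.162). H2az2, the other gene of H2A.Z, had a log2 change of 0.04, H2aj 0.28 and Macroh2a2, near the pseudocount, 0.31.

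**Figure D4:**
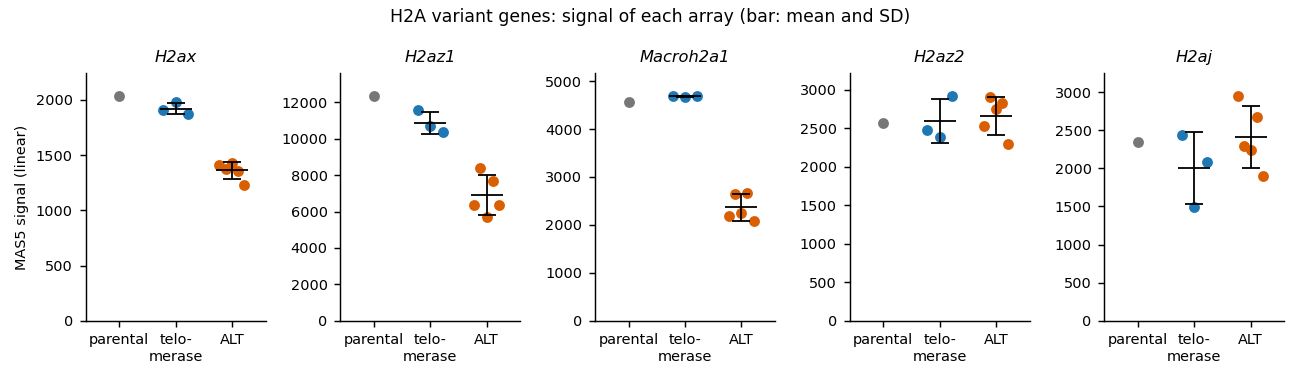
MAS5 signal (linear axis from 0) of H2ax and of 4 of the 5 other H2A variant genes (Macroh2a2, dim in most arrays, is not drawn) in every array; points are arrays and bars the mean and SD of a group. All 5 ALT points lie below the telomerase points for H2ax, H2az1 and Macroh2a1, while the groups overlap for H2az2 and H2aj.

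The members share a position that the choice by name did not use: 5 of the 10, namely Chek1, H2ax, Atm, Atr and Atrip, lie on chromosome 9. On that chromosome 94 of 701 tested genes passed, 44 higher and 50 lower, with a median log2 change of 0.01. Over all tested genes 17.5% passed, 7.48% as higher and 10.1% as lower. Around H2ax, 0 of the 5 tested genes on each side passed (limma), and their median log2 change was 0.15, opposite in sign to the fall of H2ax. Of these neighbours, 2 had an unadjusted p under 0.05, where 3884 of all 12368 tested genes did. Around Atr 1 of 10 passed, U2surp, which rose by 0.45, and the median was -0.13. Around Atm 1 of 10 passed, Fdx1, which fell by 0.83. Around Chek1 4 of 10 passed, with Tmem218 and Stt3a higher (log2 changes 0.86 and 0.31) and Ei24 and Fam118b lower (-0.96 and -0.42). Around Atrip 1 of 10 passed, Ccdc51, which rose by 0.48, and the median was -0.02. The neighbour median had the sign of the member for Atr and Atrip, and the other sign for H2ax, Atm and Chek1. The part of position was not tested.

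**Figure D5:**
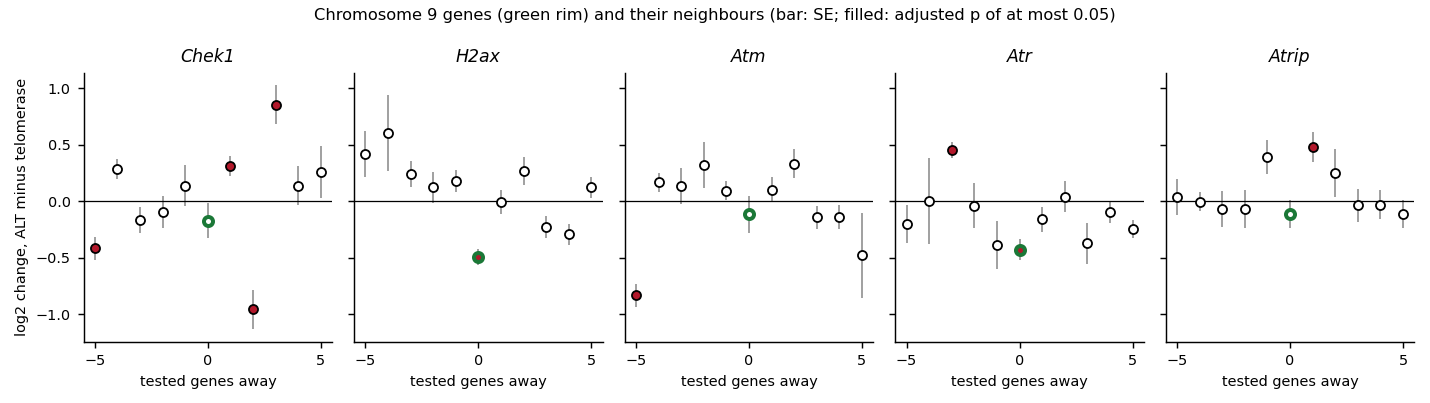
Log2 change from telomerase to ALT tumours (vertical axis, bars are SE) of the 5 genes on chromosome 9 (green rim, position 0) and of the 5 tested genes on each side in chromosome order (horizontal axis, number of genes away); filled points have a limma adjusted p of at most 0.05. H2ax at -0.49 has 0 filled neighbours, and Chek1 has 4.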

How the data were processed

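Total RNA of 9 T-cell lymphomas was hybridised to 1 array each. The deposited table holds 1 intensity per probe set and array on a linear scale, which the authors obtained with MAS5 (tool named in the submitters' processing notes); its version, settings and scaling are not given here. No array was identical to another, and all columns were used. Of 45101 probe sets 34958 named 1 gene, 932 several and 9211 none; 64 controls were left out. For each gene the brightest probe set by mean over 9 arrays was kept, and features whose mean was in the lowest 40% of probe sets (25.3 or less) were left out, which leaves 12368 genes and 22343 probe sets. Gene order came from RefSeq (GRCm38.p6), where 34741 probe sets matched.

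Telomerase (3) and ALT (5) tumours were compared with limma 3.58.1 in R 4.3.3 on log2(signal + 16) (intensity trend, two-sided, Benjamini-Hochberg over all tested features, threshold 0.05). Confidence intervals are at 95%, from limma. The parental array stayed out of the model. On simulated data with 200 changed genes among 12368, the model recovered 23% of changes of 0.5 and 76% of changes of 1 on the log2 scale, with 4 false calls. There each gene varied independently, and a far smaller share changed than the 17.5% that passed here. The rates in these arrays may therefore differ. The array number limits the precision. Alternatives changed 1 choice at a time: the filter (none, 60%), the pseudocount (1, 64), quantile normalisation, median centring, the mean of probe sets, the parental array (added to telomerase, or a separate group), a block for replicate number, the variance model (no trend, robust), a threshold of 0.1, each array left out, terms for acinar or proliferation transcripts, and arrays with or without acinar transcripts (over 2 on the log2 scale above the lowest array, or not). The NRF1 string, found in 0 member promoters, was searched as well. The members and lists were chosen with earlier results of these data known. Named were all members and their probe sets, from each role list the genes past the threshold and up to 3 with the smallest p, and, for each called member, the 3 genes most like it; other genes named, some neighbours among them, were chosen after their values were seen. Protein sequences were not used here. Plots used Python 3.11.15 and matplotlib 3.10.9.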

Additional observations from a re-analysis of the deposited data

Results flagged for a closer look

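Among the 5 ALT tumours, 1 array stood apart from the others in 1 of 34 probe sets examined in this way (those of the 10 members and the kept ones of called pathway genes), where chance gives about 1 in 20. The Ppm1d signal of ALT 2 was 176, while the other ALT tumours had 139, 137, 131 and 139.7. Without ALT 2 the Ppm1d call held.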

How the results depend on the processing

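H2ax kept its direction in all 25 alternatives and its call in 23; its adjusted p ran from 0.000269 to 0.178. Atr kept its direction in all 25 and its call in 20 (adjusted p from 0.00267 to 0.267). Several of these settings could not turn a direction. The filter, the variance model, the threshold of 0.1 and a separate parental group leave the log2 change of a gene as it was. So does the mean of probe sets for a gene with 1 probe set, such as H2ax. A call at 0.05 also could not be lost at 0.1. Deviations from the group means of same-numbered tumours correlated at -0.302, -0.402 and -0.572 over genes. Acinar transcripts differed within each such pair: telomerase 1 and 2 were low and ALT 1 and 2 high, while telomerase 3 was high and ALT 3 low. These correlations therefore cannot tell whether the numbers mark a shared parental line, which is not known here. With the replicate block 991 of all tested genes passed, 0 of the members (H2ax -0.44, adjusted p = 0.0503), 1 member probe set and 6 pathway genes. Among arrays without acinar transcripts 833 genes, 1 member, 1 member probe set and 4 pathway genes passed, and among arrays with them 329, 0, 0 and 1. With the mean of all probe sets 1 member passed. With the parental tumour counted as telomerase, and at a threshold of 0.1, 17 pathway genes passed. With each array left out in turn, 1163 to 2096 genes, 1 to 3 members, 1 to 5 member probe sets and 5 to 11 pathway genes passed. With quantile normalisation 1126 genes were higher and 1047 lower, in place of 925 and 1244.

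Signs that turned were all of values without a call there. Among arrays without acinar transcripts Atm was at 0.083 and Clspn at -0.21, and among arrays with them Chek1 was at 0.12 and Trp53bp1 at -0.14. Clspn was at -0.0038 with the parental tumour counted so and at -0.050 without telomerase 3 (range with 1 array left out, -0.050 to 0.15). Trp53bp1 was at -0.10 with the mean of probe sets, -0.033 with the replicate block, -0.04 without telomerase 2, -0.0040 without ALT 2 and -0.065 without ALT 4 (range with 1 array left out, -0.065 to 0.055). Eya3 was at 0.023 with the mean of probe sets. The causes were not tested. All 10 members lay above the filter; without detection calls the level of background is unknown.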

Other observations

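The tested genes whose log2 signals over the 9 arrays were most like those of H2ax were Cdk2ap1 (Pearson r = 0.985), Washc2 (0.984) and Snrnp48 (0.984), and those most like Atr were Tmem223 (0.989), Cisd2 (0.989) and 4921525O09Rik (0.986). These values describe 9 arrays that share their normalisation and differ by group. Their log2 changes were -0.45, -0.39, -0.69, -0.82, -1.22 and -0.93 in that order, a direction that follows from choosing them by likeness to members that fell.

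Differences within an array between partner genes were compared in 4 pairs chosen after the values were seen, with an exact two-sided permutation test whose smallest p is 0.0357 for 3 against 5 arrays. The log2 signal of H2ax minus that of Mdc1 was 2.93 to 3.00 in telomerase and 1.98 to 2.40 in ALT tumours (exact p = 0.0357, 0.143 adjusted over the 4 pairs), lower in 5 of 5 ALT tumours. H2ax had the largest fall among the members and Mdc1 the largest rise, so this p is not separate evidence. Atr minus Atrip was 2.46 to 2.68 and 2.07 to 2.55 (exact p = 0.107, adjusted 0.19), so a fall of Atr beyond that of Atrip was not shown. Clspn minus Chek1 and Atr minus Chek1 had exact p of 0.143 and 0.25 (adjusted 0.19 and 0.25).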
